A study of Homo sapiens with 12 samples.

Results

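Transcripts of 9 enzymes that make, release or inactivate estradiol were followed in a human cell model of triple-negative breast cancer, MDA-MB-468 with an estrogen receptor beta 1 (ERβ1, gene ESR2) that doxycycline turns on. The genes were HSD17B1, HSD17B2, HSD17B4, HSD17B8, HSD17B11, HSD17B12, STS, SULT1A1 and SULT1E1. They were taken by name from the 23228 genes of the files. Earlier results of these data were known when they were chosen. All 9 were in the files and all 9 were among the 14541 genes that passed the filter on low counts and were tested.

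The cells grew in phenol red-free DMEM with 10% charcoal-stripped serum for 3 days and with 5% stripped serum during the experiment, so that the groups shared a medium depleted of steroids. The 4 groups of 3 libraries were uninduced vehicle (no doxycycline, 0.1% DMSO), uninduced E2 (no doxycycline, 10 nM 17β-estradiol), induced vehicle (50 ng/mL doxycycline, 0.1% DMSO) and induced E2 (50 ng/mL doxycycline, 10 nM 17β-estradiol). The labels give 0.1% DMSO for all 4 groups, those with E2 included. Doxycycline was given for 48 hours and E2 or vehicle for the last 4 hours. The receptor is an added gene in 1 cell line, all libraries come from that line, and no group got doxycycline without the inducible receptor, so an action of the drug itself and one of the receptor cannot be told apart. The labels call the libraries triplicates and do not name separate cultures, so each p-value reflects only how much these libraries vary, which may be technical.

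Estradiol is made locally in breast tissue along separate routes. Aromatase (CYP19A1) converts androgens to estrogens, and steroid sulfatase (STS) frees estrone and other steroids from circulating sulfates. The 17β-hydroxysteroid dehydrogenases (HSD17B) then set the balance between weak estrone and potent estradiol, since some members reduce the 17-ketone and others oxidise the 17-hydroxyl. Sulfotransferases (SULT) add a sulfate that keeps estrogens off their receptors, which STS can reverse. Several HSD17B enzymes also have housekeeping roles in fatty acid metabolism, and a transcript level is not an enzyme activity.

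Promoter sequences were available for 5 of the 9 genes (HSD17B4, HSD17B8, HSD17B11, STS and SULT1E1; 9 windows of 250 bases before a start site, RefSeq, GRCh38.p14). Each window was searched on both strands for GGTCA, the core that estrogen receptors bind. It was also searched for the full element, a pair of such cores that face each other with any 3 bases between them. No window of the 5 genes held the full element, which was in 14 of 35116 windows of that length. The core alone is common, at 32.6% of the 35116 windows. The windows below are shown because STS was the gene that rose with doxycycline and HSD17B4 was an abundant member that was not called in any comparison. Each ends just before the start of a transcript that the files count, and capitals mark the core, which reads TGACC here because it lies on the other strand. The STS window lies at chrX:7219206-7219455 and has its core 243 bases before the start. The HSD17B4 window lies at chr5:119452247-119452496 and has its core 22 bases before the start. Both are on the plus strand and are written 5′ to 3′.
STS: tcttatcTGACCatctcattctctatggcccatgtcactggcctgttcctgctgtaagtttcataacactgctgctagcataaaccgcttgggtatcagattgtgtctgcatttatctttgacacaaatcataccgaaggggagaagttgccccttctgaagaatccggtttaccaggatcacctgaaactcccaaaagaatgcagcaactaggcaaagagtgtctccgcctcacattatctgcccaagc
HSD17B4: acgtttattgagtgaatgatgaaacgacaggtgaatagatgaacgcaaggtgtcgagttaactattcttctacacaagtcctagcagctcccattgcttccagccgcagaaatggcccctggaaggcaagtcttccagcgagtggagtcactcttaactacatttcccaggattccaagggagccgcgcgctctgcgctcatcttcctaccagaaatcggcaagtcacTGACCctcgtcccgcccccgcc

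Of the other windows, 1 of STS held the core 2 times and the remaining 6 did not hold it. A match is a description of these letters and not evidence of binding.

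Library depth was 7.89 to 33.3 M expected counts (M, 1000000). It was lowest in the libraries numbered 1 (7.89 to 17.97 M), which also carry an earlier date in their names than the libraries numbered 2 and 3. A floor of 3 counts corresponded to 0.0896 to 0.375 CPM (counts per 1000000 counts of the library), and it covers counting error only. ESR2 was at 1.06 to 2.26 CPM in the 6 uninduced libraries and 98.0 to 134 CPM in the 6 induced ones, as labelled. Epithelial markers were at 1 TPM (transcripts per 1000000) or more in all 12 libraries in 5 of 5 cases, with a summed level of 7227 to 10107 TPM, and so were 5 of 5 basal markers. PGR (0.00835 TPM on average) was near 0, ESR1 was at 1.44 TPM and ERBB2 was at 30.6 to 39.0 TPM. Of the fibroblast markers, DCN and LUM were at 0 in all 12 libraries, COL1A2 and PDGFRB stayed at 0.223 TPM or less, and COL1A1 was at 7.03 to 9.27 TPM. Of the leukocyte markers, PTPRC and CD3E stayed at 0.134 TPM or less, while CD14 was at 30.2 to 52.2 TPM and CD68 at 5.18 to 10.3 TPM. Summed marker levels were higher with doxycycline in the epithelial list (7227 to 7690 TPM uninduced, 8388 to 10107 TPM induced) and in the list of ESR1, PGR and ERBB2 (32.1 to 34.1 TPM uninduced, 34.8 to 40.1 TPM induced). They were lower in the basal list (1876 to 2054 TPM uninduced, 1467 to 1631 TPM induced) and in the endothelial list (12.5 to 18.4 TPM uninduced, 6.22 to 9.52 TPM induced). The endothelial sum came from KDR (5.81 to 17.98 TPM), while PECAM1 stayed at 0.551 TPM or less and CDH5 at 0.198 TPM or less. The part of these shifts in the results below was not tested. In bulk RNA, fewer cells with a transcript and less of it per cell cannot be told apart.

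Levels are compared between genes in TPM, which accounts for transcript length. The cells held transcripts of both directions of the estrone and estradiol exchange and of both sulfation and desulfation. 8 of the 9 genes were at 1 TPM or more in all 12 libraries, and HSD17B11 reached it in 2. HSD17B12 led with 285 TPM ± 11.9 (SD, n = 12), followed by HSD17B4 with 147 TPM ± 9.87 and HSD17B2 with 104 TPM (83.9 to 131). Together the 9 genes summed to 607 TPM ± 25.2 (SD, n = 3) in uninduced vehicle, 607 TPM ± 27.1 in uninduced E2, 657 TPM ± 23.3 in induced vehicle and 626 TPM ± 36.9 in induced E2. The range of induced vehicle (631 to 677 TPM) lay above those of uninduced vehicle (578 to 626 TPM) and uninduced E2 (576 to 626 TPM). The range of induced E2 (588 to 662 TPM) overlapped all of these. The sums were not tested.

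**Figure D1:**
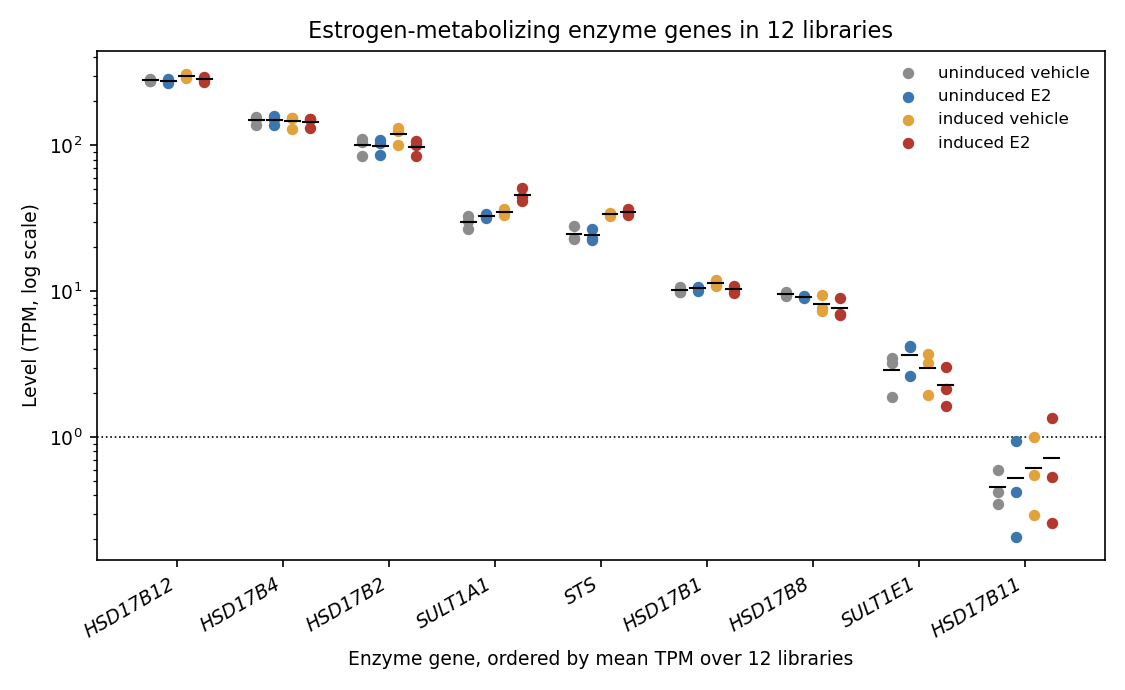
TPM (log axis) of the 9 genes, each point 1 library coloured by group, with a bar at each group's mean (n = 3) and a dotted line at 1 TPM. HSD17B12 is above the other members in all 12 libraries, at 269 to 309 TPM, and HSD17B11 lies around or below 1 TPM, at 0.208 to 1.36.

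Among the members that yield estradiol, HSD17B12 was the most abundant. It reduces 3-ketoacyl-CoA in the elongation of very long fatty acids and can also reduce estrone. Its 269 to 309 TPM exceeded 97.6% of all genes in the files and made up 45.7% of the summed TPM of the 9. HSD17B1, the classical estrone reductase of ovary and placenta, was at 9.75 to 11.9 TPM (mean 10.6 ± 0.606, SD, n = 12), above 61.3% of all genes. Within each library HSD17B12 was 24.6 to 28.8 times HSD17B1, with a median of 27.5. STS, the sulfatase of the endoplasmic reticulum, was at 22.3 to 36.6 TPM, above 76.3% of all genes.

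The oxidising enzymes among the 9 members were led by HSD17B4 and HSD17B2. HSD17B4 is a peroxisomal multifunctional enzyme of fatty acid oxidation whose dehydrogenase part can oxidise estradiol, and it lay at 130 to 158 TPM. HSD17B2, which converts estradiol to estrone and testosterone to androstenedione, lay at 83.9 to 131 TPM. HSD17B4 was above HSD17B2 in 12 of 12 libraries, by 1.18 to 1.63 times, although their ranges over libraries overlapped. HSD17B2 was in turn 7.75 to 12.1 times HSD17B1, with a median of 10.3. HSD17B8, which acts in mitochondrial fatty acid synthesis and can oxidise estradiol, was at 6.92 to 9.86 TPM. The files list 6 transcript entries for HSD17B8 that are copies of 1 transcript. HSD17B11, a lipid droplet enzyme that oxidises androstanediol, had 4 to 21 counts per library and 0.578 TPM ± 0.350 (SD, n = 12), so that it was close to the floor of 3 counts in the shallowest library.

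The sulfotransferases differed in level. SULT1A1, which sulfates many phenols and estrogens at higher concentrations, was at 26.6 to 51.2 TPM. SULT1E1, the estrogen sulfotransferase with the highest affinity for estradiol, was at 1.64 to 4.22 TPM. SULT1A1 exceeded SULT1E1 by 7.63 to 26.8 times within each library, with a median of 11.4. STS exceeded SULT1E1 by 5.29 to 22.4 times, with a median of 10.3. STS and SULT1A1 were the neighbours in the order with the least clear separation: SULT1A1 was higher in 10 of 12 libraries and their ranges overlapped. The other neighbours kept their order in 12 of 12 libraries, with ranges that overlapped for HSD17B4 and HSD17B2 and for HSD17B1 and HSD17B8. SULT1A1 shares sequence with SULT1A2, SULT1A3 and SULT1A4, and took 53.9% to 63.3% of the reads assigned to the 4 genes.

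Doxycycline without E2 raised STS. Its libraries read 83.1, 67.6 and 69.2 CPM (scaled by TMM) in uninduced vehicle and 98.4, 102 and 103 CPM in induced vehicle. The groups did not overlap, and induced vehicle was higher by 0.49 ± 0.07 (log2, SE; 1.40-fold, 95% interval 1.25 to 1.56; edgeR adjusted p = 0.00135). This was the 1 member called of 9, all called members being higher, where 3.81% of all genes tested were called. STS stayed called with each of the 12 libraries left out in turn (log2 0.43 to 0.56). The 554 genes called over the whole table became 364 without uninduced vehicle number 2 and 369 without uninduced vehicle number 3. Medians were 0.17 (log2) over the 9 members and -0.001 over all genes tested.

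HSD17B2, HSD17B12, HSD17B1 and SULT1A1 also had higher means in induced vehicle and did not pass this test. HSD17B2 read 53.8, 70.9 and 68.0 CPM in uninduced vehicle and 65.0, 81.8 and 84.7 CPM in induced vehicle, a difference of 0.25 ± 0.12 (log2, SE; adjusted p = 0.368). The libraries of number 1 were the lowest of their group for HSD17B2 in 4 of 4 groups, so the groups overlap while each numbered pair is higher with doxycycline. With the replicate number as a block, the HSD17B2 difference was 0.26 ± 0.04 (log2, SE; adjusted p = 0.000162). HSD17B12 read 321, 320 and 334 CPM against 362, 344 and 350 CPM with doxycycline, groups that do not overlap. Its difference was 0.11 ± 0.04 (log2, SE; adjusted p = 0.158, and 0.0410 with the block). With the block, 3 of 9 members were called higher (STS, HSD17B2 and HSD17B12), where 10% of all genes were called.

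For the remaining members doxycycline without E2 left values that did not pass either test. HSD17B1 read 9.99, 10.1 and 10.8 CPM in uninduced vehicle and 11.5, 12.2 and 11.2 CPM in induced vehicle, groups that do not overlap (log2 0.17 ± 0.08, SE; edgeR adjusted p = 0.290). SULT1A1 also did not overlap between these groups (log2 0.21 ± 0.09, SE; adjusted p = 0.263). HSD17B8 was lower in 3 of 3 pairs, at 4.00, 4.23 and 4.01 CPM in uninduced vehicle and 3.19, 4.09 and 3.31 CPM in induced vehicle (log2 -0.18 ± 0.14, SE). The 95% interval of HSD17B4, which read 170 to 193 CPM and 162 to 193 CPM, was 0.883-fold to 1.11-fold. The interval of SULT1E1 ran from 0.655-fold to 1.53-fold and that of HSD17B11 from 0.457-fold to 3.59-fold, so this fit did not resolve changes within those bounds. With the replicate block the SE of SULT1E1 was 0.17 (log2), against 0.28 without it.

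**Figure D2:**
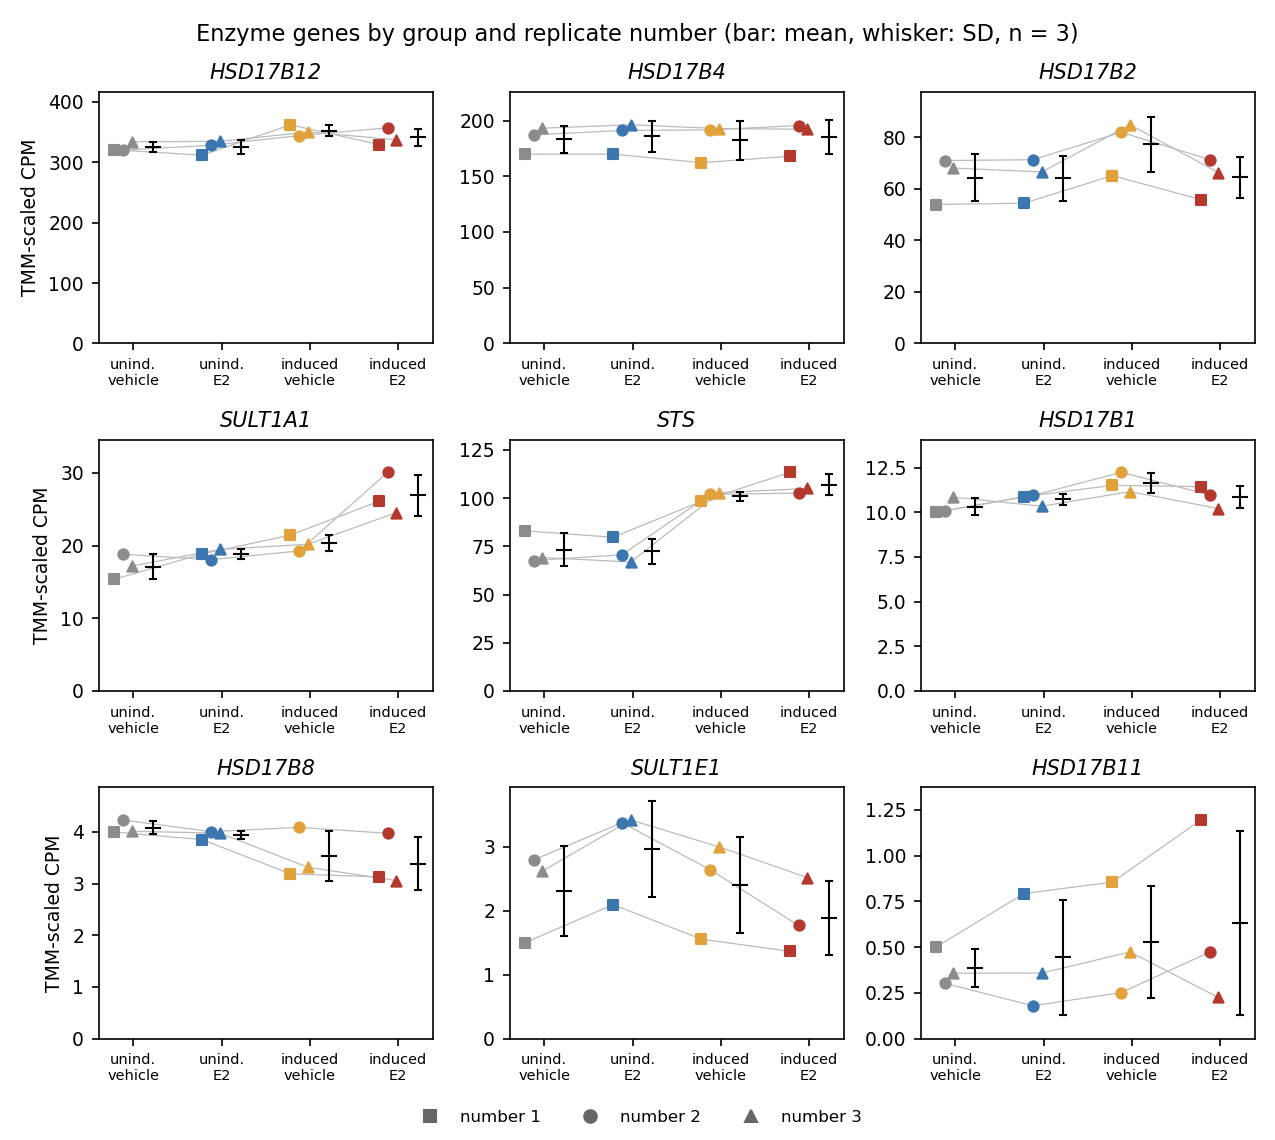
TMM-scaled CPM (linear axes from 0) of the 9 genes by group, with the marker shape giving the replicate number, grey lines joining libraries of 1 number, and a bar and whisker for the mean and SD (n = 3). STS is higher in the 6 induced libraries (98.4 to 113 CPM) than in the 6 uninduced ones (66.9 to 83.1 CPM), SULT1A1 is highest in the 3 induced E2 libraries, and the number 1 libraries are lowest for HSD17B2, HSD17B4 and SULT1E1 in all 4 groups.

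E2 in induced cells raised SULT1A1. It read 21.5, 19.3 and 20.2 CPM in induced vehicle and 26.1, 30.1 and 24.5 CPM in induced E2. The groups did not overlap, and E2 raised it by 0.42 ± 0.08 (log2, SE; 1.34-fold, 95% interval 1.18 to 1.51; edgeR adjusted p = 0.00235). It was the 1 member called of 9, where 16.5% of all genes tested were called. The call held with each of the 12 libraries left out in turn (log2 0.33 to 0.48), and with the reads of SULT1A1 to SULT1A4 summed (log2 0.39 ± 0.08, SE; adjusted p = 0.00494). The median was -0.04 (log2) over the 9 members and -0.005 over all genes tested.

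HSD17B2 went from 65.0, 81.8 and 84.7 CPM in induced vehicle to 55.7, 71.2 and 66.2 CPM in induced E2. It was lower with E2 in 3 of 3 numbered pairs although the groups overlapped, and the difference was -0.27 ± 0.12 (log2, SE; adjusted p = 0.178). With the replicate block it was -0.26 ± 0.04 (log2, SE; adjusted p = 4.14e-05), and 2 of 9 members were then called (SULT1A1 higher and HSD17B2 lower), where 23.8% of all genes were called. HSD17B2 was also called without the block when induced vehicle number 1, its lowest library in that group, was left out (log2 -0.36, adjusted p = 0.0487). The mean level of HSD17B2 in induced E2 (64.4 CPM ± 7.92, SD, n = 3) was next to that of uninduced vehicle (64.2 CPM ± 9.12), and the ratio of HSD17B4 to HSD17B2 in TPM was 1.18 to 1.29 in induced vehicle and 1.37 to 1.63 in the other 9 libraries.

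STS, already higher with doxycycline, did not pass the test for E2 in induced cells: it read 98.4, 102 and 103 CPM without E2 and 113, 103 and 105 CPM with it (0.950-fold to 1.18-fold, 95% interval; edgeR adjusted p = 0.551). The interval of HSD17B12 was 0.914-fold to 1.03-fold and that of HSD17B4 0.905-fold to 1.14-fold. HSD17B1 and HSD17B8 were lower with E2 in 3 of 3 pairs, by -0.11 ± 0.07 and -0.08 ± 0.14 (log2, SE), and neither was called. SULT1E1 read 1.55, 2.64 and 3.00 CPM without E2 and 1.36, 1.77 and 2.52 CPM with it, lower in 3 of 3 pairs and not called (log2 -0.38 ± 0.28, SE; adjusted p = 0.450).

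In uninduced cells E2 moved no member past the threshold. 0 of 9 members and 0% of all genes tested were called by edgeR, where 227 genes and 0 members had an unadjusted p under 0.05, and DESeq2 called 1 gene that was no member. SULT1A1 read 15.4, 18.8 and 17.2 CPM with vehicle and 18.8, 18.1 and 19.5 CPM with E2, and its 95% interval ran from 0.946-fold to 1.22-fold. STS had an interval of 0.894-fold to 1.12-fold and HSD17B12 one of 0.942-fold to 1.06-fold. SULT1E1 was higher with E2 in 3 of 3 pairs, at 1.50, 2.79 and 2.62 CPM with vehicle and 2.09, 3.38 and 3.42 CPM with E2, and was not called (0.823-fold to 1.81-fold, 95% interval).

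With E2 present, doxycycline raised STS and SULT1A1. STS went from 79.7, 70.6 and 66.9 CPM in uninduced E2 to 113, 103 and 105 CPM in induced E2, a difference of 0.57 ± 0.07 (log2, SE; 1.48-fold, 95% interval 1.33 to 1.65; edgeR adjusted p = 3.29e-05). SULT1A1 went from 18.8, 18.1 and 19.5 CPM to 26.1, 30.1 and 24.5 CPM, a difference of 0.52 ± 0.08 (log2, SE; 1.44-fold, 95% interval 1.27 to 1.62; edgeR adjusted p = 0.000202). Neither gene overlapped between the groups. They were the 2 members called of 9, where 28% of all genes tested were called, 2184 higher and 1894 lower (1799 higher and 2679 lower with upper quartile scaling). STS and SULT1A1 were called higher under that scaling too. This comparison shares libraries with the other ones, so its values do not add independent evidence to them.

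SULT1E1 had a lower mean in induced E2 than in uninduced E2. It read 2.09, 3.38 and 3.42 CPM in uninduced E2 and 1.36, 1.77 and 2.52 CPM in induced E2, with groups that overlap and 3 of 3 pairs lower. The difference was -0.67 ± 0.27 (log2, SE; 0.629-fold, edgeR adjusted p = 0.0821) and -0.67 ± 0.16 with the replicate block (adjusted p = 0.00293). With the block 3 of 9 members were called, where 37.3% of all genes were called. Without the block SULT1E1 was called with the libraries numbered 2 and 3 alone (log2 -0.68, adjusted p = 0.00900), and when uninduced E2 number 1 was left out (log2 -0.83, adjusted p = 0.0318) or induced E2 number 3 (log2 -0.93, adjusted p = 0.0415). HSD17B2 lay at 0.01 ± 0.12 (log2, SE), HSD17B4 at -0.004 ± 0.08 and HSD17B1 at 0.02 ± 0.07 in this comparison. HSD17B8 was lower in 3 of 3 pairs and HSD17B12 higher in 3 of 3 pairs, and neither was called with or without the block. HSD17B11 was at 0.179 to 0.792 CPM in uninduced E2 and 0.225 to 1.19 CPM in induced E2, with a 95% interval of 0.611-fold to 3.71-fold.

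**Figure D3:**
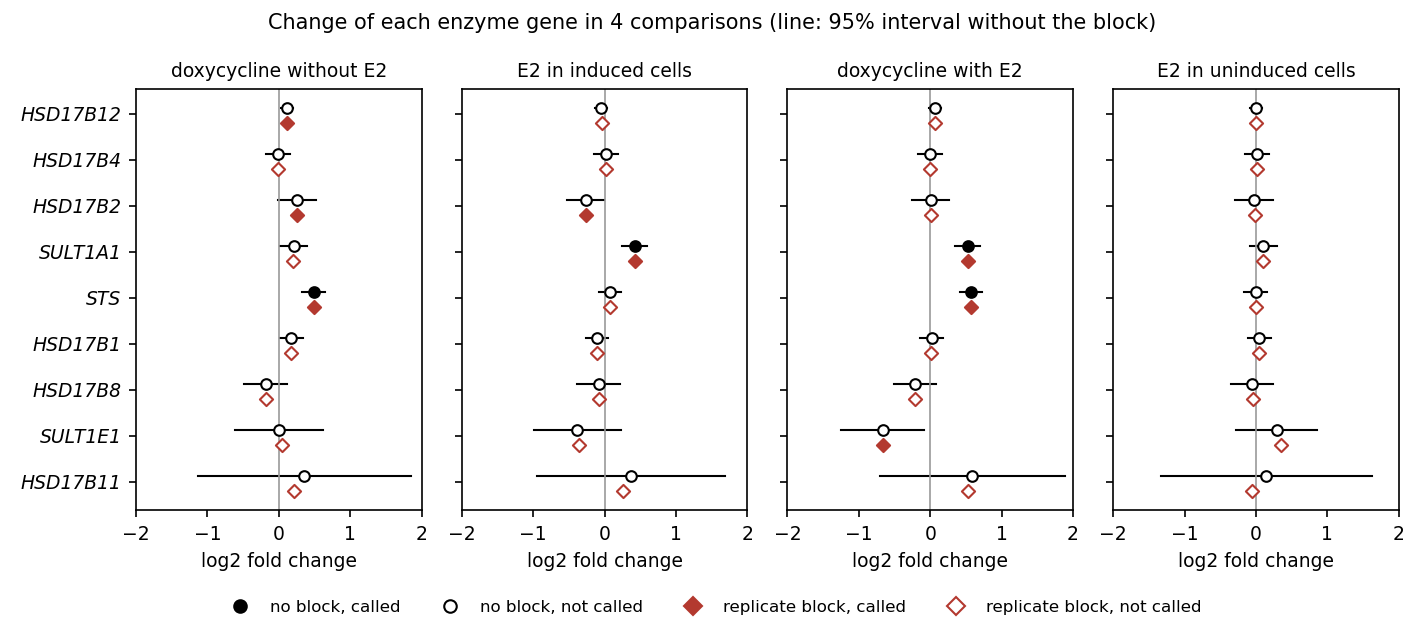
Log2 fold change of the 9 genes in 4 comparisons, with black circles for the edgeR fit without a block and its 95% interval as a line, and red diamonds for the fit with the replicate number as a block (filled symbols are called at an adjusted p under 0.05). STS is filled in both doxycycline comparisons, SULT1A1 in both comparisons that include induced E2, and HSD17B2 only with the block, at 0.26 with doxycycline and -0.26 with E2 in induced cells.

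The interaction asks whether the E2 change differed between induced and uninduced cells. 0 of 9 members were called by edgeR, where 8.47% of all genes tested were called. 1 member had an unadjusted p under 0.05 and DESeq2 called 0 members. SULT1A1 was nearest, with an interaction of 0.31 ± 0.12 (log2, SE; adjusted p = 0.151), against 0.34 ± 0.11 with the replicate block (adjusted p = 0.0465). With the block 3 of 9 members were called, where 14.7% of all genes were called. The other members called were HSD17B2, at -0.24 ± 0.17 (log2, SE; adjusted p = 0.525) without the block and -0.25 ± 0.06 with it (adjusted p = 0.00357), and SULT1E1, at -0.67 ± 0.39 (adjusted p = 0.405) and -0.71 ± 0.24 (adjusted p = 0.04996). The SULT1A1 interaction was also called with the libraries numbered 2 and 3 alone (log2 0.43, adjusted p = 0.0234). It was called in 2 of 19 alternative settings, and its 95% interval without the block was 1.04-fold to 1.49-fold before adjustment.

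The libraries numbered 1 differed from the others in several members. HSD17B2, HSD17B4 and SULT1E1 were lowest in number 1 in 4 of 4 groups, by a median of -0.35, -0.20 and -0.78 (log2) against the mean of the other numbers. HSD17B11 was highest in number 1 in 4 of 4 groups (median log2 1.48) and STS in 3 of 4 (median log2 0.17). With the libraries numbered 2 and 3 alone, STS remained called with doxycycline (log2 0.58 without E2 and 0.59 with it) and SULT1A1 with E2 in induced cells (log2 0.48, adjusted p = 0.000294). The HSD17B2 differences were 0.26 and -0.27 (log2) in these libraries, both called.

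Over the 12 libraries, the genes whose log2 CPM lay closest to that of STS after centring were LHFP, BST2 and SLFN5, with root mean square differences of 0.0803, 0.0995 and 0.101 (log2) against a median of 0.308 over all genes tested. For SULT1A1 they were MTERFD3, SLC30A1 and PNMA1, at 0.0751, 0.0899 and 0.0922 against a median of 0.293. These are likenesses over libraries that share 4 treatments.

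The members were set beside 75 other genes of estrogen metabolism in 7 lists, of which 35 were at 1 TPM or more in all 12 libraries and 41 were tested. Of the genes upstream, aromatase (CYP19A1) had at most 3 counts in a library and 12 counts over all 12 libraries (0.0214 TPM on average), which is at or under the floor. CYP11A1, which starts steroid synthesis, was at 0 in all libraries, and CYP17A1, HSD3B1 and HSD3B2 had 2, 4 and 5 counts in total. In this list of androgen and estrogen synthesis, 2 of 9 genes were at 1 TPM or more in all libraries. These were the steroid 5α-reductases SRD5A1 (79.0 TPM) and SRD5A3 (20.8 TPM), neither of which converts androgens to estrogens. None of the 3 tested was called in a comparison, with or without the block.

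Further enzymes that act on the 17 position or on other steroid ketones were abundant. AKR1C2 (461 TPM) and AKR1C1 (255 TPM), aldo-keto reductases with overlapping steroid substrates, exceeded HSD17B4, and the carbonyl reductase CBR1 was at 141 TPM. Outside the rule for named genes, HSD17B10 (119 TPM) lay above HSD17B2 (104 TPM) on average. HSD17B7 (32.9 TPM) and AKR1C3 (31.0 TPM) lay above HSD17B1 (10.6 TPM). AKR1C1 to AKR1C3 are near copies of each other, so the split of reads between them is uncertain. Of the 9 tested genes of this list, 0 were called with E2 in induced cells and 2 were lower with doxycycline in the presence of E2, AKR1C1 (log2 -0.55 ± 0.16, SE; edgeR adjusted p = 0.0177) and CBR1 (log2 -0.16 ± 0.05, SE; adjusted p = 0.0138). Over all genes tested 16.5% and 28% were called in these comparisons, and 23.8% and 37.3% with the block, so the count of 2 is near the rate of the whole table. With the block 3 were lower with E2 in induced cells (AKR1C1, AKR1C2 and CBR1) and 5 with doxycycline in the presence of E2 (AKR1C3 and CBR4 as well). Also with the block, 2 (AKR1C1 and AKR1C2) were lower with doxycycline without E2 and in the interaction, where 10% and 14.7% of all genes were called. The AKR1C1 call was lost without uninduced E2 number 2 or 3 or induced E2 number 1 (adjusted p = 0.0737, 0.0659 and 0.0696), and the CBR1 call without induced E2 number 2 (0.0789).

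The sulfation list holds the enzymes that make and move the sulfate donor PAPS used by SULT1A1 and SULT1E1, and the other sulfotransferases. SULT2B1, which sulfates hydroxysteroids such as cholesterol and pregnenolone, was at 57.6 TPM, above both sulfotransferase members. With E2 in induced cells 2 of 9 tested genes were higher, SULT2B1 (log2 0.63 ± 0.09, SE; edgeR adjusted p = 0.000107) and the PAPS transporter SLC35B3 (log2 0.21 ± 0.05, SE; adjusted p = 0.00750), and 0 were lower, where 16.5% of all genes were called. With doxycycline in the presence of E2, 4 of 9 were higher: SULT2B1 (log2 0.58), SULT1A2 (0.58), the PAPS synthase PAPSS2 (0.38) and SLC35B3 (0.24), where 28% of all genes were called. With the block 6 were higher and 1, PAPSS1, was lower, where 37.3% of all genes were called. SULT1A3 and SULT1A4 were among the 6. With the block 3 were higher with E2 in induced cells, where 23.8% were called, PAPSS2 (log2 0.17, adjusted p = 0.0411) being the gene added. The SULT1A2 call was lost without induced E2 number 2 (log2 0.49, adjusted p = 0.0638). SULT1A3 and SULT1A4 hold identical values in every library and cannot be told apart, so their calls rest on 1 measurement. PAPSS2 was the 1 gene of the list higher with doxycycline without E2 (log2 0.25 ± 0.06, SE; adjusted p = 0.0306), where 3.81% of all genes were called. This call was lost without uninduced vehicle number 1, 2 or 3 (adjusted p = 0.0520, 0.163 and 0.0664) and without induced vehicle number 2 or 3 (0.151 and 0.0644). It was also lost with only the groups compared (0.0979) and in DESeq2 (0.0846).

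STS needs SUMF1, which converts a cysteine in its active site. SUMF1 was at 17.5 TPM and its paralogue SUMF2 at 552 TPM. All 6 genes of the sulfatase list were at 1 TPM or more in all libraries and tested, the sulfatases GALNS (35.1 TPM) and ARSD (up to 24.7 TPM) among them, and 0 of 6 were called in any comparison without the block. With the block 2 of 6, ARSD and SUMF2, were lower with doxycycline in the presence of E2. In that fit 37.3% of all genes were called, so this count is near the rate of the whole table. STS was called higher there.

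Hydroxylation of estrogens was represented by CYP1B1 (139 TPM), which hydroxylates estradiol, its electron donor POR (94.2 TPM) and CYB5A (85.9 TPM). CYB5A was higher with doxycycline, by 0.27 ± 0.06 without E2 (log2, SE; edgeR adjusted p = 0.0189) and 0.23 ± 0.06 with E2 (adjusted p = 0.00677). The first of these calls was lost without uninduced vehicle number 2 (adjusted p = 0.0604) and without induced vehicle number 2 or 3 (0.0829 and 0.0922), and with only the groups compared (0.0726). CYP1B1 read 295, 242 and 248 CPM in induced E2 against 426, 329 and 326 CPM in uninduced E2 (log2 -0.46 ± 0.15, SE; adjusted p = 0.0320), a call lost in DESeq2 (0.0772), without uninduced E2 number 1 (0.132) and without induced E2 number 2 or 3 (0.112 and 0.105). So 1 of 6 tested genes was higher and 1 lower with doxycycline in the presence of E2, where 28% of all genes were called. With the block 1 was higher and 2 lower, where 37.3% of all genes were called. The other one lower with the block was CYP1A1, which falls outside the rule for named genes and was chosen after its values were seen. CYP1A1 lay at 8.33 to 68.5 TPM over the libraries and was lower in 3 of 3 pairs (log2 -1.35 ± 0.54, SE; edgeR adjusted p = 0.0801, and -1.34 ± 0.08 with the block, 2.80e-11). With the block it was also lower with doxycycline without E2 (log2 -0.75, adjusted p = 1.05e-06) and in the interaction (log2 -0.59, adjusted p = 0.000663). With E2 in induced cells 0 of 6 were called, where 16.5% of all genes were called. With the block 3 were lower, where 23.8% of all genes were called: CYP1B1 (log2 -0.44), POR (-0.13) and CYP1A1 (-0.60). CYP1B1 was near the threshold without the block (log2 -0.45 ± 0.15, SE; adjusted p = 0.0533). It passed with upper quartile scaling (0.0423), no filter (0.0322), only the groups compared (0.0297) and the libraries numbered 2 and 3 alone (1.73e-08), and without number 1 of uninduced vehicle, uninduced E2 or induced E2 (0.0225, 0.0343 and 0.0394). The CYP1B1 interaction was called with the block (log2 -0.43, adjusted p = 3.32e-06) and not without it (0.281).

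Glucuronidation had little transcript support. Of its 13 genes, 9 UGT enzymes were at 0 in all 12 libraries, UGT1A6 averaged 0.491 TPM and UGT2B15 0.0661 TPM. UGT1A genes share their last exons, so reads may have been assigned among them in ways these files do not show. UGDH, which makes the sugar donor, was at 21.8 TPM and the glucuronidase GUSB at 51.6 TPM. None of the 3 tested genes was called without the block. With the block 1 (UGT1A6, outside the rule for named genes) was higher with doxycycline in the presence of E2, where 37.3% of all genes were called.

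Carriers of steroid conjugates were led by SLCO3A1 (23.6 TPM), ABCC1 (10.0 TPM) and ABCC4 (9.03 TPM), and SLCO1B1 and SLCO1B3 were at 0. With doxycycline in the presence of E2, SLCO3A1 (log2 0.31 ± 0.06, SE; edgeR adjusted p = 0.00218) and ABCC2 (log2 1.09 ± 0.28, SE; adjusted p = 0.00843) were higher and ABCC4 was lower (log2 -0.34 ± 0.09, SE; adjusted p = 0.00710), of 5 tested, where 28% of all genes were called. ABCC2 was low, at 0.161 to 0.652 TPM and 3 to 30 counts per library. The ABCC2 call was lost without uninduced E2 number 2 (log2 0.80, adjusted p = 0.0602). With E2 in induced cells SLCO3A1 was the 1 gene called (log2 0.21 ± 0.06, SE; adjusted p = 0.0431), where 16.5% of all genes were called. It was lost in 10 of the 12 fits that left out a library (adjusted p from 0.0511 to 0.217), each of the 6 uninduced libraries among them. The same call was lost with upper quartile scaling (0.0675) and with only the groups compared (0.122). With the block ABCC4 was also lower with E2 in induced cells (log2 -0.23, adjusted p = 0.0166), and SLCO4A1, outside the rule for named genes, with doxycycline in the presence of E2 (log2 -0.38, adjusted p = 0.00507).

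**Figure D4:**
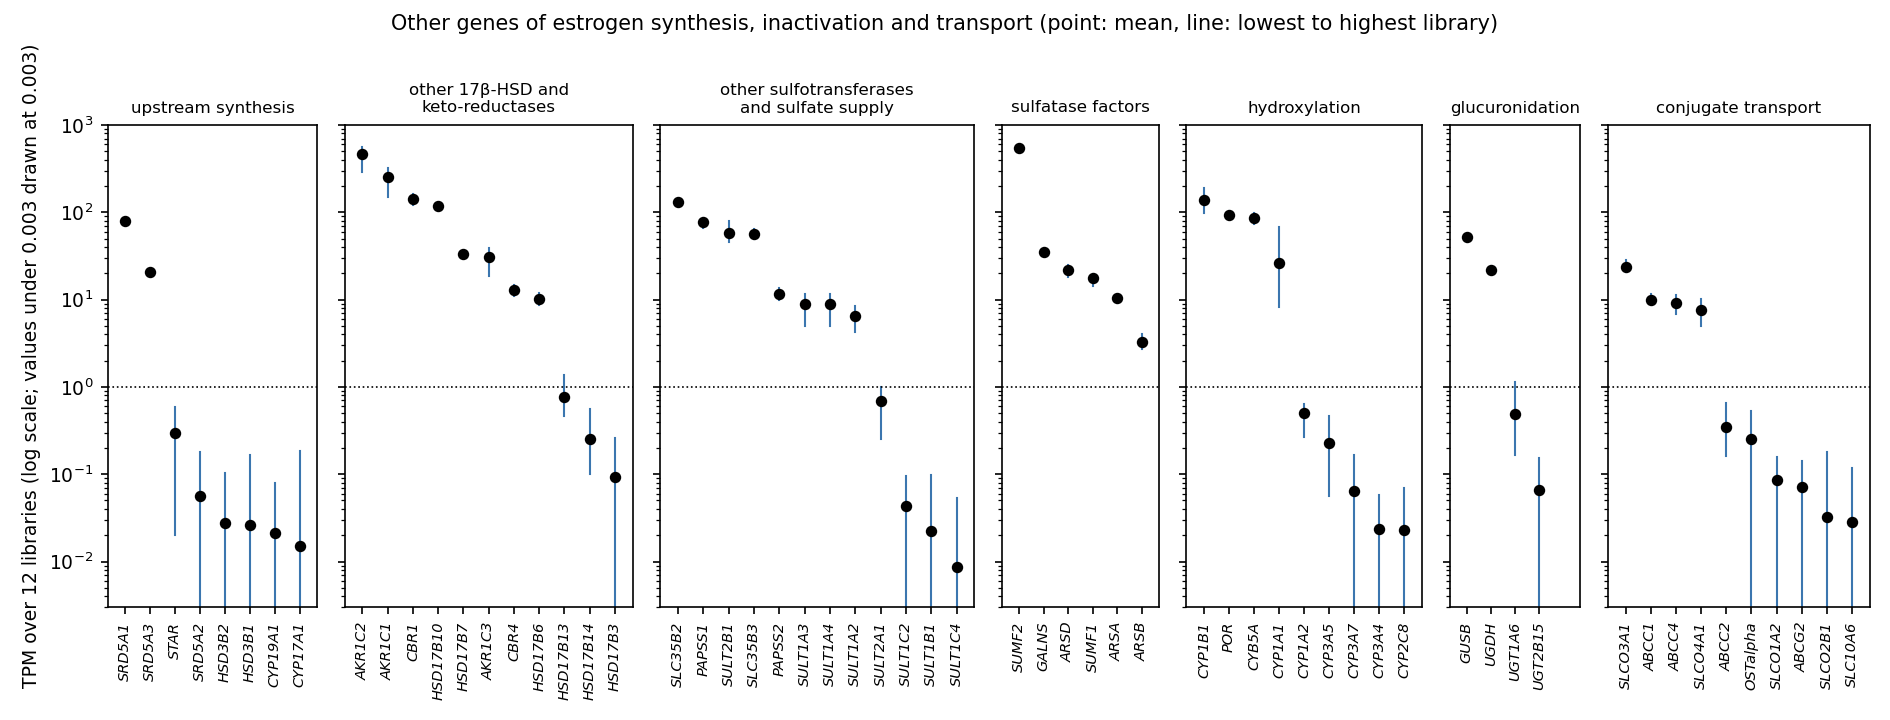
TPM (log axis) of the other estrogen metabolism genes by list, with a point at the mean and a line from the lowest to the highest of the 12 libraries; genes at 0 in all libraries and 1 further gene are not drawn. CYP19A1 averages 0.0214 TPM and the UGT genes drawn lie under or around 1 TPM, while AKR1C2 (461 TPM), SUMF2 (552 TPM) and CYP1B1 (139 TPM) lead their lists.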

How the data were processed

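RNA sequencing of 12 libraries (4 groups of 3) was analysed. The deposited files hold RSEM expected counts per gene and, in a further column, the authors' estimate of the fraction of all transcripts that belong to a gene (sum of 1 per library). RSEM 1.1.16, DESeq 1.7.10 and hg19 are named per the submitters' processing notes, and these do not name an aligner. Fractions were multiplied by 1000000 to give TPM and were not tested. Expected counts (7.89 to 33.3 M per library) were rounded and fitted with edgeR 4.0.16 in R 4.3.3: filterByExpr (minimum count 10, minimum total 15), TMM scaling, 1 mean per group, quasi-likelihood tests with 8 residual degrees of freedom, and Benjamini-Hochberg adjustment over all 14541 genes tested in each of 5 contrasts. Genes were called at an adjusted p under 0.05. The biological coefficient of variation was 5.34%. The script was tested on simulated data.

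Replicates of a group were not identical and differed by more than sampling noise. Libraries with the same number were more alike across groups. Over 12376 genes, deviations from the group means correlated at 0.104 to 0.464 (median 0.246) in the 18 pairs of libraries with the same number. In the 36 others they correlated at -0.427 to 0.278 (median -0.220), where centring each group on its mean pushes values below 0. Within groups, a chi-square per gene of count differences was 4.33 to 7.16 for number 1 against 2 or 3. For 2 against 3 it was 1.63 to 2.65. The labels do not say what a number marks. These values do not tell a pairing by every number from number 1 standing apart. A fit with the number as a block is given beside results where it changed the call of a member or a count of calls.

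Members, pathway lists and tests were chosen with earlier results of these data known. Named genes are the 9 members, ESR2, CYP19A1, the up to 3 most abundant pathway genes of each list and, of those called, up to 4 per contrast with the smallest p; other pathway genes were named after their values were seen. Alternatives were DESeq2 1.42.0, other scaling (RLE, upper quartile), no filter, fewer groups, the block, the later file date, each library left out and, added after seeing the data, summed SULT1A1 to SULT1A4 reads. Promoter windows are RefSeq's for GRCh38.p14. No hg19 coordinates are given. 1 listed pathway gene is not reported here.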

Additional observations from a re-analysis of the deposited data

Results flagged for a closer look

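The E2 response of SULT2B1, a sulfotransferase of hydroxysteroids and 1 of the genes listed beside the members, differed between induced and uninduced cells by a test of the difference itself (interaction 0.66 ± 0.12, log2, SE; edgeR adjusted p = 0.00331, and 2.33e-06 with the replicate block). SULT2B1 read 23.7, 30.6 and 28.8 CPM in uninduced vehicle, 25.1, 30.8 and 27.2 CPM in uninduced E2, 24.6, 28.2 and 27.1 CPM in induced vehicle and 40.6, 43.7 and 40.4 CPM in induced E2. The 3 induced E2 libraries lie above the other 9. No member had an interaction called without the block.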

How the results depend on the processing

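For the 9 members, 849 values were recomputed under 20 alternative settings. None of the calls was lost or reversed, 834 values stayed on their side of the threshold, and 15 passed it under an alternative: HSD17B2, HSD17B12, SULT1E1 and SULT1A1 in the fits named below or above. A gene that was not called was given no direction, so a change of sign there was not counted. Over all named genes, 33 of 3105 values lost a call and 56 gained one.

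Pairing the libraries by number, as a replicate block, moved the members called to 2 for E2 in induced cells, 3 for doxycycline without E2 and 3 for the interaction, and the genes called to 1456 for doxycycline without E2 and 2143 for the interaction. Beyond the calls given above, the block changed no other call of a member. With the later file date only, members called of 9 were 2 for E2 in induced cells, 2 for doxycycline without E2, 3 for doxycycline with E2 and 2 for the interaction. Genes called in that setting, of 14612 tested, were 3391, 1082, 5064 and 2105 in the same order. With 1 library left out at a time, members called with E2 in induced cells ranged from 1 to 2. The 2 were called without induced vehicle number 1, where 2481 of 14728 genes tested were called. In these fits, genes called ranged from 364 to 621 with doxycycline without E2. With E2 in uninduced cells they ranged from 0 to 1 (1 without uninduced vehicle number 2). DESeq2 called 1 gene with E2 in uninduced cells. The cause of these shifts was not tested.

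By CPM in place of TPM, 3 members changed position in the order of levels. Counts were fewest for HSD17B11 (4 to 21 per library) and SULT1E1 (12 to 113).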
